A study of Mus musculus with 6 samples.

Results

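Bone morphogenetic proteins (BMPs) are secreted ligands that are held back by extracellular antagonists and read by pairs of membrane receptors. Described here are 10 genes of this pathway in a tumour cell line with guide RNA against Cdk10. The genes are the ligands Bmp2 and Bmp4, the antagonist Grem1, the receptors Bmpr1a and Bmpr2, and the direct targets Id1, Id2, Id3, Smad6 and Smad7. They were picked from the 57010 identifiers of the deposited table because Bmp2 was higher and Grem1 lower in the cells with guide RNA against Cdk10. The values of that contrast are therefore a description for these 10 genes, without p-values.

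The cells were CT26, a line from a colon carcinoma of the mouse, and their RNA was sequenced in 2 groups of 3 libraries each. The first group, sgCdk10, carried guide RNA against Cdk10, which encodes a cyclin-dependent kinase. The other, sgControl, carried control guide RNA. The labels do not say how many guides a group carried, whether it was 1 clone or a pool, or which site was cut. Nor do they say how long after delivery of the guides RNA was taken, or whether the libraries of a group were grown as separate cultures. The p-values below thus reflect library-to-library spread alone, and that spread may be technical.

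In the BMP pathway a ligand binds a type I and a type II receptor, the type II receptor phosphorylates the type I receptor, and the type I receptor activates SMAD1, SMAD5 and SMAD9, which enter the nucleus with SMAD4. The ID genes are the classical direct targets: their proteins bind E proteins, transcription factors of the helix-loop-helix class, and keep them from DNA. SMAD6 and SMAD7 are inhibitory SMADs that are induced by the pathway and act back on it. In the intestine BMP signalling is known to favour differentiation along the crypt axis, and Gremlin 1, which binds BMP2 and BMP4 outside the cell, is known mainly as a product of the mesenchyme below the crypts.

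Promoter sequences are shown for the antagonist gene Grem1, which was lower in sgCdk10, and for a pair of ID genes, Id3, which was lower, and Id2, which was not called. They are the 250 bases before the RefSeq start on GRCm38.p6, given 5′ to 3′ on the strand of the gene. Capitals mark the letters searched on both strands: GGCGCC, a GC-rich motif known to bind SMAD1 and SMAD5; CAGAC or its complement GTCTG, the SMAD box; CACGTG, an E-box; and TGACG or its complement CGTCA, the core of the cyclic AMP response element.
Grem1: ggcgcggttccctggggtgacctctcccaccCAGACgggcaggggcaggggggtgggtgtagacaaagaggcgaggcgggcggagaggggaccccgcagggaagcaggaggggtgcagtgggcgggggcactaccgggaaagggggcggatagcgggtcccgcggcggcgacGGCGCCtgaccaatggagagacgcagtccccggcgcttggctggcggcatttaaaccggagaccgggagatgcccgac
Id3: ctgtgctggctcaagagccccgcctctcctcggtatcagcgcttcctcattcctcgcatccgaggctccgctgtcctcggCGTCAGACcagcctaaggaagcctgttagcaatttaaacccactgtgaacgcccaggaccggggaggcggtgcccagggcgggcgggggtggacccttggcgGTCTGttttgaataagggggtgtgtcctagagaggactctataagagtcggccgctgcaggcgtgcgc
Id2: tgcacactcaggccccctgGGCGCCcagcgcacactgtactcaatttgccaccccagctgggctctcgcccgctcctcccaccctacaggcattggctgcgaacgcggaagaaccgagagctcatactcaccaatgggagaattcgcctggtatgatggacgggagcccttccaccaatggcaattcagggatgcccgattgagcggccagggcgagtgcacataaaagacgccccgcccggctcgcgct
The Grem1 stretch lies at chr2:113758649-113758898 on the minus strand, that of Id3 at chr4:136143572-136143821 on the plus strand and that of Id2 at chr12:25096093-25096342 on the minus strand. The stretches of Id3 and Id2 lie within the gene spans given below, which GENCODE starts farther upstream.

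Of the 10 genes 7 had an entry in the promoter table, namely Bmp4, Grem1, Bmpr1a, Bmpr2, Id2, Id3 and Smad6. GGCGCC stood once each before Grem1, Id2, Bmpr1a and Bmpr2, and in 9.59% of all 32851 promoters of the table. The SMAD box letters stood once before Grem1 and 2 times before Id3, and in 42.2% of all promoters. The core of the cyclic AMP response element stood once before Id3, where it shares 2 bases with a SMAD box, and in 17.8% of all promoters. CACGTG stood once before Bmp4 and in 6.02% of all promoters. G and C made up 72.0% of the Grem1 stretch and 62.8% of those of Id3 and Id2. A match of letters is no measure of binding.

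Total counts ran from 17532202 to 19258309 per library, at which 3 counts, the floor used for detection, came to 0.156 to 0.171 CPM. CPM here are counts per library total in the usual scaling, with TMM factors, and their SD is over 3 libraries. Over tested genes, libraries of a group correlated at 0.994 to 0.996 and libraries of different groups at 0.987 to 0.990 (Pearson r of log2 values). The library of sgControl replicate 3 stood apart on the second principal component, which held 16.5% of the variance. For some genes below, log2 fold changes are also given without it. Cdk10 had 11.3, 12.9 and 10.5 CPM in the sgCdk10 libraries, against 21.5, 19.4 and 20.1 CPM in the sgControl libraries, with no overlap between the groups (log2 fold change -0.82, SE 0.08; adjusted p = 8.4e-09 by edgeR). Part of this count may belong to Spata2l on the opposite strand and to Gm45842, whose exons overlap those of Cdk10.

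Markers of other cells were checked first, since Gremlin is known as a stromal product. Of 14 leukocyte markers 7 were at 0 counts in every library, and the list summed to 12.8 to 13.9 CPM in sgCdk10 and 9.14 to 9.21 CPM in sgControl. Nearly all of it was Cd68, a lysosomal protein of macrophages, and the summed level of the other 13 was 0.166 to 0.519 CPM in sgCdk10 and 0.282 to 0.620 CPM in sgControl. Cd68 rose by 0.57 on the log2 scale (SE 0.08, adjusted p = 5.2e-06 by edgeR). Of 9 fibroblast markers 4 were expressed at testable levels, Col1a1, Col1a2, Pdgfra and Pdgfrb, while the fibroblast markers Lum, Thy1 and Acta2 were at 0 in every library. The sum of the 9 was 1562 to 1584 CPM in sgCdk10 and 1359 to 1511 CPM in sgControl, most of it Col1a2, a chain of type I collagen. Pdgfra, a receptor of platelet-derived growth factor, rose by 0.63 on the log2 scale (SE 0.09, adjusted p = 2.2e-06 by edgeR). Its exons share 456 bases with the antisense gene Gm42802. Col1a1 rose by 0.27 (adjusted p = 0.00406 by edgeR) and Col1a2 by 0.10 (adjusted p = 0.0284 by edgeR). Pdgfrb was not called (adjusted p = 0.0671 by edgeR), and Grem1 was lower. The part of such cells or of this state in the values below was not tested, and in bulk RNA fewer cells of a type and less RNA per cell cannot be told apart. Of the markers of epithelium and colon, Epcam was at 0 in every library and Cdh1, the gene of E-cadherin, had at most 1 count. Among these 9 markers only Krt18 and Krt20 had enough counts to test. Krt18 averaged 37.5 ± 1.04 CPM in sgCdk10 and 23.9 ± 1.44 CPM in sgControl (SD, n = 3 each). Krt20 averaged 19.5 ± 1.44 CPM in sgCdk10 and 13.7 ± 0.640 CPM in sgControl. On the log2 scale Krt18 rose by 0.65 (adjusted p = 1.4e-09 by edgeR) and Krt20 by 0.51 (adjusted p = 4.8e-06 by edgeR). Krt8 had at most 12 counts.

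Among the 9 of the 10 genes that passed the filter on low counts, 3 were called higher in sgCdk10 (Bmp2, Bmpr2 and Smad7), 3 were called lower (Grem1, Id1 and Id3) and 3 were not called (Bmpr1a, Id2 and Smad6). A call is an adjusted p under 0.05 in edgeR's quasi-likelihood test over all 13442 tested genes. Of all tested genes 42.5% were called, 22.1% higher and 20.4% lower. Because the contrast chose the genes, nothing is read from their count. The tenth, Bmp4, had no counts. The median log2 fold change of the 9 was 0.04, against -0.00307 over all tested genes, whose median absolute log2 fold change was 0.16.

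**Figure D1:**
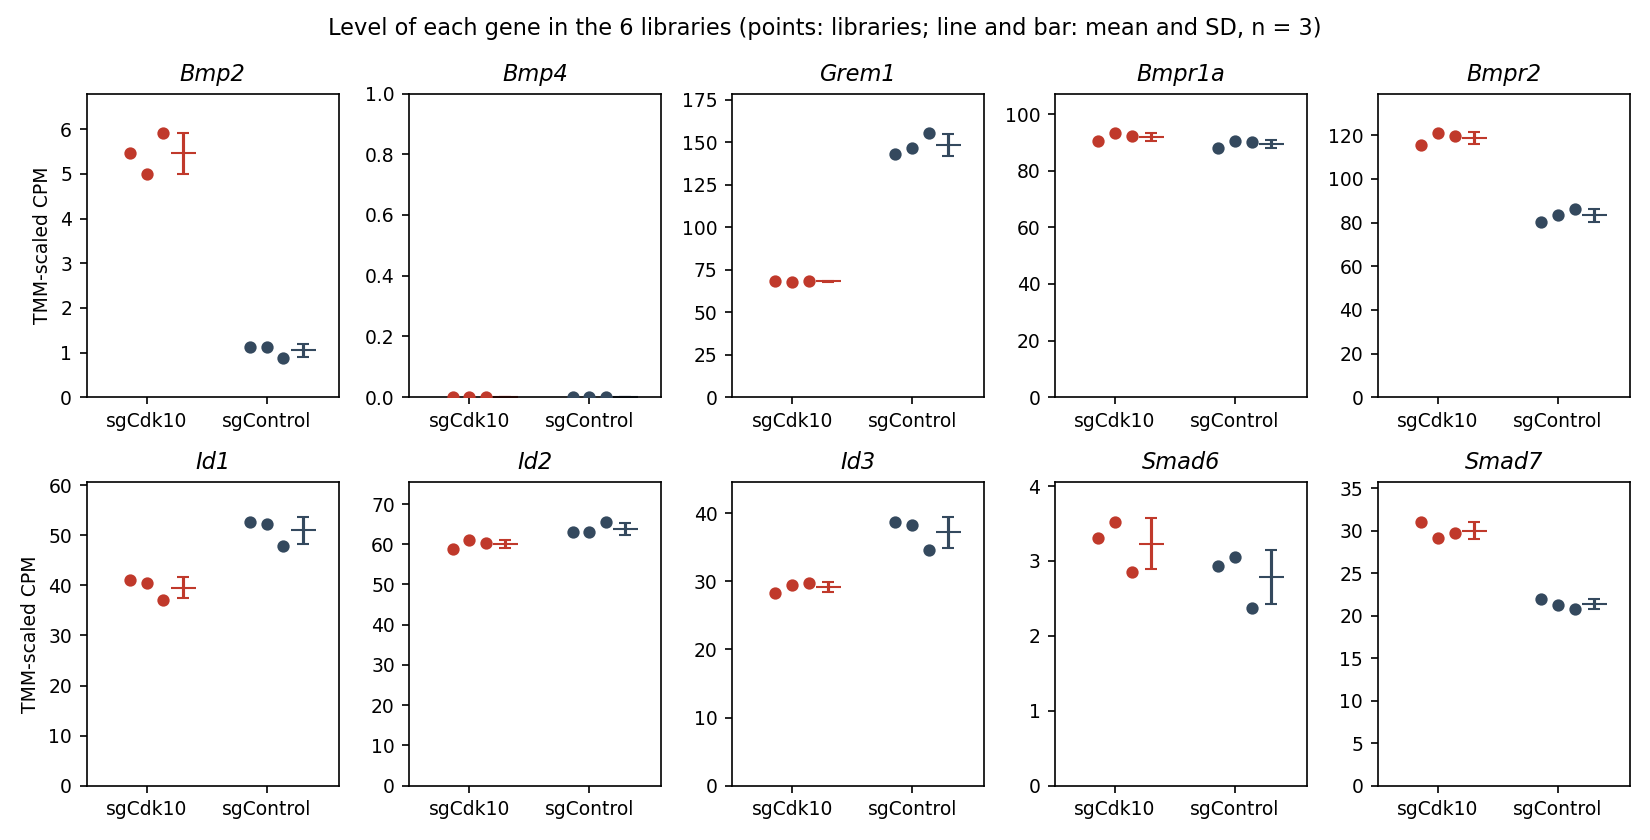
TMM-scaled CPM (y axis, from 0, with a scale of its own in each panel) of the 10 genes in the sgCdk10 and sgControl libraries; points are libraries, and the line with its bar is the mean with the SD (n = 3). Bmp2, Bmpr2 and Smad7 lie higher in all sgCdk10 libraries, Grem1, Id1, Id2 and Id3 lower, Bmpr1a and Smad6 overlap, and Bmp4 is at 0 in all 6.

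Of the ligands Bmp2 and Bmp4, only Bmp2 had counts. Bmp2 (ENSMUSG00000027358; chromosome 2, 133552159 to 133562885, plus strand of GRCm38, 3 merged exons) encodes a ligand that signals through BMPR1A with BMPR2. It had 99, 88 and 114 counts in the sgCdk10 libraries, against 20, 20 and 16 counts in the sgControl libraries. In CPM this was 5.46, 5.005 and 5.92 in sgCdk10 and 1.13, 1.13 and 0.882 in sgControl. Every sgCdk10 library thus lay far above every sgControl library, and the lowest value was that of sgControl replicate 3. The log2 fold change was 2.38 (SE 0.18), a 5.20-fold difference, and 2.27 (SE 0.20) without sgControl replicate 3.

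Bmp4 (ENSMUSG00000021835; chromosome 14, 46383520 to 46390669, minus strand, 4 merged exons), the close paralog of Bmp2, had 0 counts in all 6 libraries. A count of 0 allows up to 3 counts in a library, or 0.171 CPM in the shallowest one, and covers counting error only. No level and no difference were detectable for it at this depth, so of the pair only Bmp2 mRNA was measured in these cells.

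Grem1 (ENSMUSG00000074934; chromosome 2, 113746164 to 113758646, minus strand, 2 merged exons), the antagonist, was one of the more abundant of the 10 mRNAs. It had 68.6, 67.7 and 68.3 CPM in the sgCdk10 libraries, against 143, 147 and 155 CPM in the sgControl libraries. The sgCdk10 libraries were nearly equal, and the highest value was that of sgControl replicate 3. The means were 68.2 ± 0.434 CPM in sgCdk10 and 148 ± 6.38 CPM in sgControl (SD, n = 3 each), a log2 fold change of -1.12 (SE 0.04), or 0.460-fold. Without sgControl replicate 3 the log2 fold change was -1.09. No exon of another annotated gene overlaps those of Grem1 or Bmp2, whose exons lie on the same chromosome but do not adjoin.

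Set per kilobase of merged exon, which allows levels of different genes to be compared, Grem1 mRNA exceeded Bmp2 mRNA in every library. The ratio was 10.8, 11.6 and 9.90 in the sgCdk10 libraries, against 109, 111 and 151 in the sgControl libraries. The means were 10.8 ± 0.849 in sgCdk10 and 124 ± 23.8 in sgControl (SD, n = 3 each). Both genes chose the list, so the gap between the groups is no separate result; what the ratio adds is that the antagonist mRNA stayed the more abundant one in sgCdk10 as well. The sgControl ratios rest on 16 to 20 Bmp2 counts and are less precise, and the highest, 151, was that of sgControl replicate 3. Merged exons join all annotated isoforms, so these levels are too low where a cell uses a short one.

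Of the receptors, the type II receptor moved and the type I receptor was not called. Bmpr2 (ENSMUSG00000067336; chromosome 1, 59763400 to 59879014, plus strand, 13 merged exons) encodes the type II receptor that prefers BMPs. It had 116, 121 and 119.6 CPM in the sgCdk10 libraries, against 80.2, 83.5 and 86.2 CPM in the sgControl libraries. The groups did not overlap, which was also so for 51.3% of all tested genes. Its log2 fold change was 0.51 (SE 0.04), or 1.42-fold.

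Bmpr1a (ENSMUSG00000021796; chromosome 14, 34410734 to 34503341, minus strand, 14 merged exons) encodes the type I receptor ALK3. It had 90.5, 93.3 and 92.4 CPM in the sgCdk10 libraries, against 88.0, 90.7 and 90.1 CPM in the sgControl libraries. The groups overlapped, and the log2 fold change was 0.04 (SE 0.03). The antisense gene Gm17110 shares 290 bases with its exons, so a small part of its count may not be its own.

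Of the ID genes, Id1 and Id3 were lower in sgCdk10 and Id2 was not called, and differences between their changes were not tested. Id1 (ENSMUSG00000042745; chromosome 2, 152736251 to 152737410, plus strand, 1 merged exon) had 41.1, 40.4 and 37.2 CPM in the sgCdk10 libraries, against 52.7, 52.3 and 47.9 CPM in the sgControl libraries. Id3 (ENSMUSG00000007872; chromosome 4, 136143497 to 136145755, plus strand, 4 merged exons) had 28.3, 29.5 and 29.7 CPM in sgCdk10, against 38.7, 38.2 and 34.6 CPM in sgControl. For both genes the groups did not overlap, and sgControl replicate 3 was the sgControl library nearest to sgCdk10. The log2 fold changes were -0.37 (SE 0.05) for Id1 and -0.35 (SE 0.06) for Id3, and without sgControl replicate 3 they were -0.41 and -0.40.

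Id2 (ENSMUSG00000020644; chromosome 12, 25093799 to 25097140, minus strand, 3 merged exons) had 58.9, 61.0 and 60.2 CPM in the sgCdk10 libraries, against 62.9, 63.1 and 65.6 CPM in the sgControl libraries. The groups did not overlap, but the gap was small (log2 fold change -0.09, SE 0.04) and was not called. Summed per kilobase, the 3 ID genes had 75.0 ± 1.53 CPM per kilobase in sgCdk10 and 90.9 ± 2.93 in sgControl (SD, n = 3 each). Id2 made up 32.8% ± 0.819 of that sum in sgCdk10 and 28.9% ± 1.64 in sgControl. Per kilobase, Id1 remained the most abundant of the 3 in every library, with 45.4% ± 1.65 of the sum in sgCdk10 and 48.3% ± 0.972 in sgControl. This order rests on merged exon lengths of 1160 bases for Id1 and 2438 bases for Id2. In CPM, Id2 was the highest of the 3 in every library. It had 58.9 to 61.0 CPM in sgCdk10, against 37.2 to 41.1 CPM for Id1. In sgControl it had 62.9 to 65.6 CPM, against 47.9 to 52.7 CPM for Id1. No exon of another annotated gene overlaps those of Id1, Id2 or Id3.

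Of the inhibitory SMADs, Smad7 was called higher and Smad6 was not called, and the difference between their changes was not tested. Smad7 (ENSMUSG00000025880; chromosome 18, 75367529 to 75395935, plus strand, 6 merged exons), which blocks receptors of both the BMP and the TGF-beta branch, had 31.1, 29.2 and 29.7 CPM in the sgCdk10 libraries, against 21.99, 21.3 and 20.8 CPM in the sgControl libraries. The groups did not overlap, and the log2 fold change was 0.49 (SE 0.06), or 1.405-fold. Smad6 (ENSMUSG00000036867; chromosome 9, 63953076 to 64022059, minus strand, 6 merged exons), which acts mainly on the BMP branch, had 3.31, 3.53 and 2.85 CPM in sgCdk10, against 2.93, 3.05 and 2.37 CPM in sgControl. These groups overlapped. At 43 to 62 counts per library its log2 fold change of 0.21 had an SE of 0.17 and was 0.10 without sgControl replicate 3, so a difference was not detectable at this depth. Per kilobase Smad7 exceeded Smad6 by 6.63 ± 0.760 times in sgCdk10 and by 5.49 ± 0.651 times in sgControl (SD, n = 3 each), with overlapping groups. The direct targets thus did not share a direction: Smad7 was called higher, Id1 and Id3 lower, and Id2 and Smad6 were not called.

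**Figure D2:**
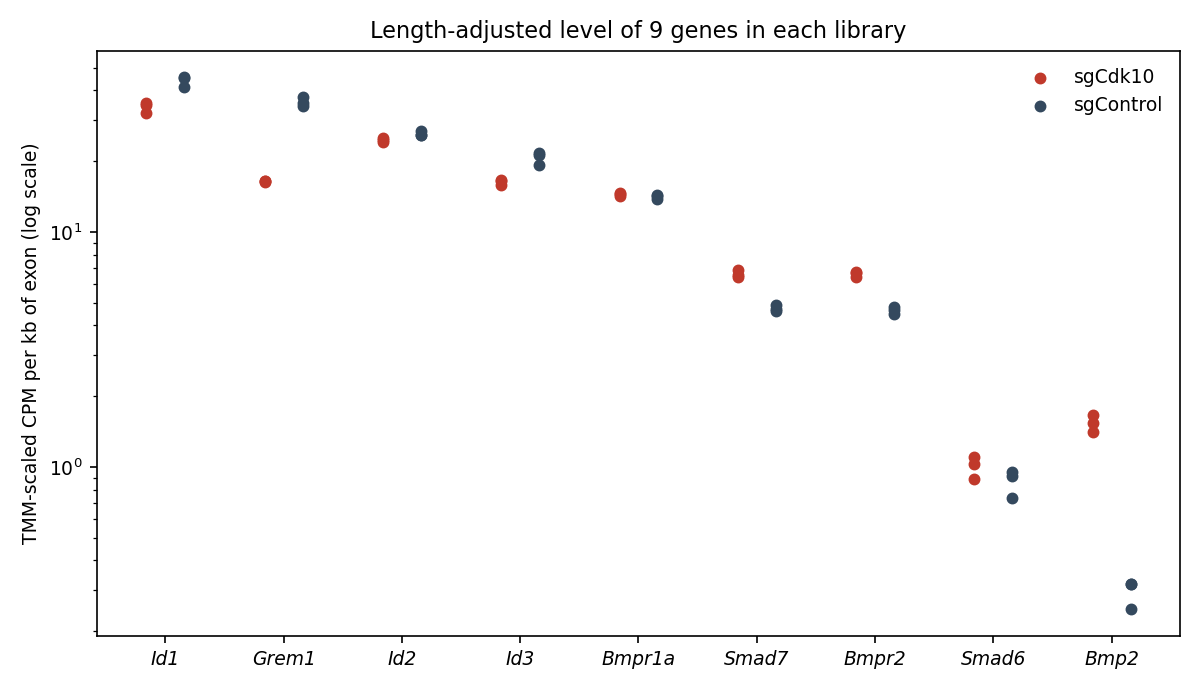
TMM-scaled CPM per kilobase of merged exon (y axis, log scale) of the 9 genes with counts, in order of their mean sgControl level; each point is 1 library of sgCdk10 or sgControl. Grem1 lies second, at 34.5 to 37.5, in sgControl and beside Id3, at 16.3 to 16.5, in sgCdk10, and Bmp2 is lowest in sgControl.

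Per kilobase the order of levels in sgCdk10 was Id1 (34.1 ± 1.81), Id2 (24.6 ± 0.424), Grem1 (16.4 ± 0.105), Id3 (16.3 ± 0.414), Bmpr1a (14.5 ± 0.224), Smad7 (6.63 ± 0.214), Bmpr2 (6.60 ± 0.152), Bmp2 (1.54 ± 0.128) and Smad6 (1.01 ± 0.107), in CPM per kilobase (SD, n = 3). In sgControl it was Id1 (44.0 ± 2.28), Grem1 (35.8 ± 1.54), Id2 (26.2 ± 0.621), Id3 (20.7 ± 1.27), Bmpr1a (14.1 ± 0.221), Smad7 (4.72 ± 0.135), Bmpr2 (4.63 ± 0.167), Smad6 (0.869 ± 0.113) and Bmp2 (0.294 ± 0.0401). Neighbours whose ranges over libraries overlapped were Grem1 and Id3 in sgCdk10, and Smad7 and Bmpr2 in both groups. Per kilobase, Grem1 and Id2 changed places between the groups, as did Bmp2 and Smad6. For Grem1 and Id2 this rests on merged exon lengths of 4148 and 2438 bases. In CPM, Grem1 lay above Id2 in every library of both groups. In sgCdk10 it had 67.7 to 68.6 CPM, against 58.9 to 61.0 CPM for Id2. Bmp2 and Smad6 changed places in CPM as well.

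The rest of the pathway was followed in 66 further genes, listed by role, of which 36 passed the filter. Of these 13 rose, 6 fell and 17 were not called, so that 52.8% were called against 42.5% of all tested genes. Their median log2 fold change was 0.10. The list was chosen with earlier results of these data known, and nothing is read from the share.

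**Figure D3:**
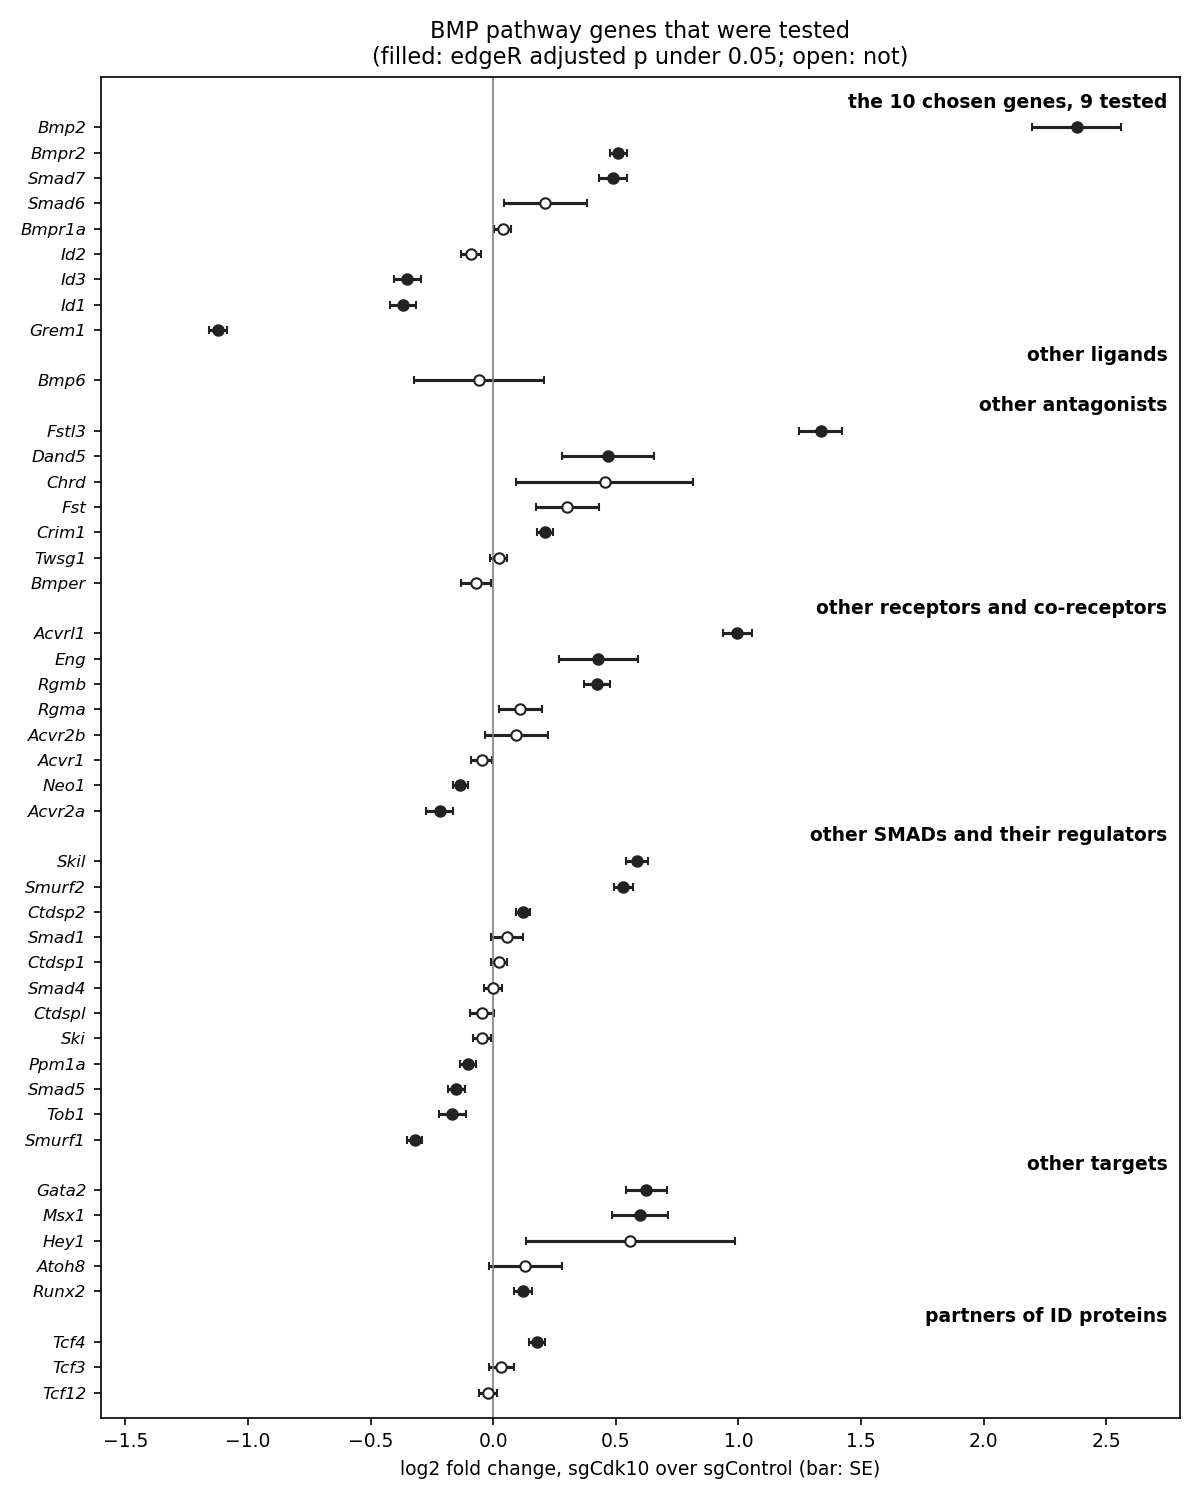
Log2 fold change of sgCdk10 over sgControl (x axis, bars are the SE) for the 9 tested genes chosen here and for 36 further genes of the BMP pathway, grouped by role; filled points passed edgeR's adjusted p of 0.05 and open points did not. Among the further genes Fstl3 (1.34) and Acvrl1 (1.00) lie farthest to the right and Smurf1 (-0.32) farthest to the left.

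Other BMP ligands were scarce. Of 12 listed, 7 had 0 counts in every library and only Bmp6 was tested. Bmp6 had 0.281 ± 0.0657 CPM per kilobase in sgCdk10 and 0.292 ± 0.0249 in sgControl (SD, n = 3 each), a level like that of Bmp2 in sgControl, and was not called (log2 fold change -0.06, SE 0.27; adjusted p = 0.879 by edgeR). Its exons share 224 bases with Txndc5 on the opposite strand. Bmp2 and Bmp6 were the only ligands with enough counts to test.

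Of 15 other antagonists listed, 7 were tested, 3 rose, 0 fell and 4 were not called. This is 42.9% called, beside 42.5% of all tested genes (22.1% higher, 20.4% lower), so the share is that of the background. Of the 15, 6, among them Nog, the gene of noggin, had 0 counts in every library. Fstl3, a follistatin-like protein that binds activins and BMPs, had 16.7, 14.96 and 16.03 CPM in sgCdk10, against 6.26, 6.55 and 6.06 CPM in sgControl. It rose by 1.34 on the log2 scale (SE 0.09; adjusted p = 1.1e-11 by edgeR), but 1157 bases of its exons are shared with Prss57 on the opposite strand. Crim1, a membrane protein that binds BMPs, rose by 0.21 (SE 0.03, adjusted p = 8.3e-06 by edgeR). Its exons share 123 bases with Fez2 on the opposite strand. Dand5, a secreted protein of the Cerberus family, rose by 0.47 (SE 0.19; adjusted p = 0.0471 by edgeR), a call that 10 of 14 alternatives did not make (adjusted p from 0.0188 to 0.204). Twsg1, which helps chordin bind BMPs, had 94.9 ± 0.915 CPM in sgCdk10 and 93.4 ± 3.01 CPM in sgControl (SD, n = 3 each; adjusted p = 0.641 by edgeR).

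Per kilobase, Grem1 with 16.4 CPM in sgCdk10 lay below Crim1 (25.3 ± 0.520) and Twsg1 (18.4 ± 0.178), whereas in sgControl Grem1 with 35.8 lay above Crim1 (21.8 ± 0.447) and Twsg1 (18.1 ± 0.584) (SD, n = 3).

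Among other receptors the type I receptor Acvrl1 had the highest log2 fold change of the 8 tested. Acvrl1 encodes ALK1, known mainly from endothelium, where it reads BMP9 and BMP10. It had 38.8, 39.2 and 37.2 CPM in the sgCdk10 libraries, against 18.9, 17.9 and 20.9 CPM in the sgControl libraries, and rose by 1.00 on the log2 scale (SE 0.06; adjusted p = 1.8e-12 by edgeR). The exons of Acvrl1 share 127 bases with the antisense gene Gm16031. The ligand genes Gdf2 and Bmp10 had 0 counts in every library. The endothelial markers summed to 0.662 to 0.796 CPM in sgCdk10 and 0.678 to 1.13 CPM in sgControl. Acvr1, the gene of the type I receptor ALK2, had 50.6 ± 0.724 CPM in sgCdk10 and 52.3 ± 0.728 CPM in sgControl (SD, n = 3 each; adjusted p = 0.413 by edgeR).

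Of the type II receptors shared with activins, Acvr2a fell by 0.22 on the log2 scale (SE 0.06; adjusted p = 0.0025 by edgeR), while Acvr2b had a log2 fold change of 0.09 (adjusted p = 0.579 by edgeR). Bmpr2 made up 53.2% ± 0.859 of the summed type II receptor mRNA per kilobase in sgCdk10 and 41.8% ± 0.329 in sgControl, and Acvr2a 35.8% ± 0.245 in sgCdk10 and 46.6% ± 0.996 in sgControl (SD, n = 3 each). Per kilobase, Bmpr2 was thus the larger share in every sgCdk10 library, and Acvr2a in every sgControl library. This order rests on merged exon lengths of 17983 bases for Bmpr2 and 5686 bases for Acvr2a. In CPM, Bmpr2 was the higher of them in sgControl too, with means of 83.3 against 29.3. The exons of Acvr2a share 446 bases with Orc4 on the opposite strand. Of the type I sum, Bmpr1a made up 42.6% ± 0.479 in sgCdk10 and 47.9% ± 0.789 in sgControl, and Acvrl1 26.5% ± 0.566 in sgCdk10 and 15.3% ± 1.06 in sgControl.

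**Figure D4:**
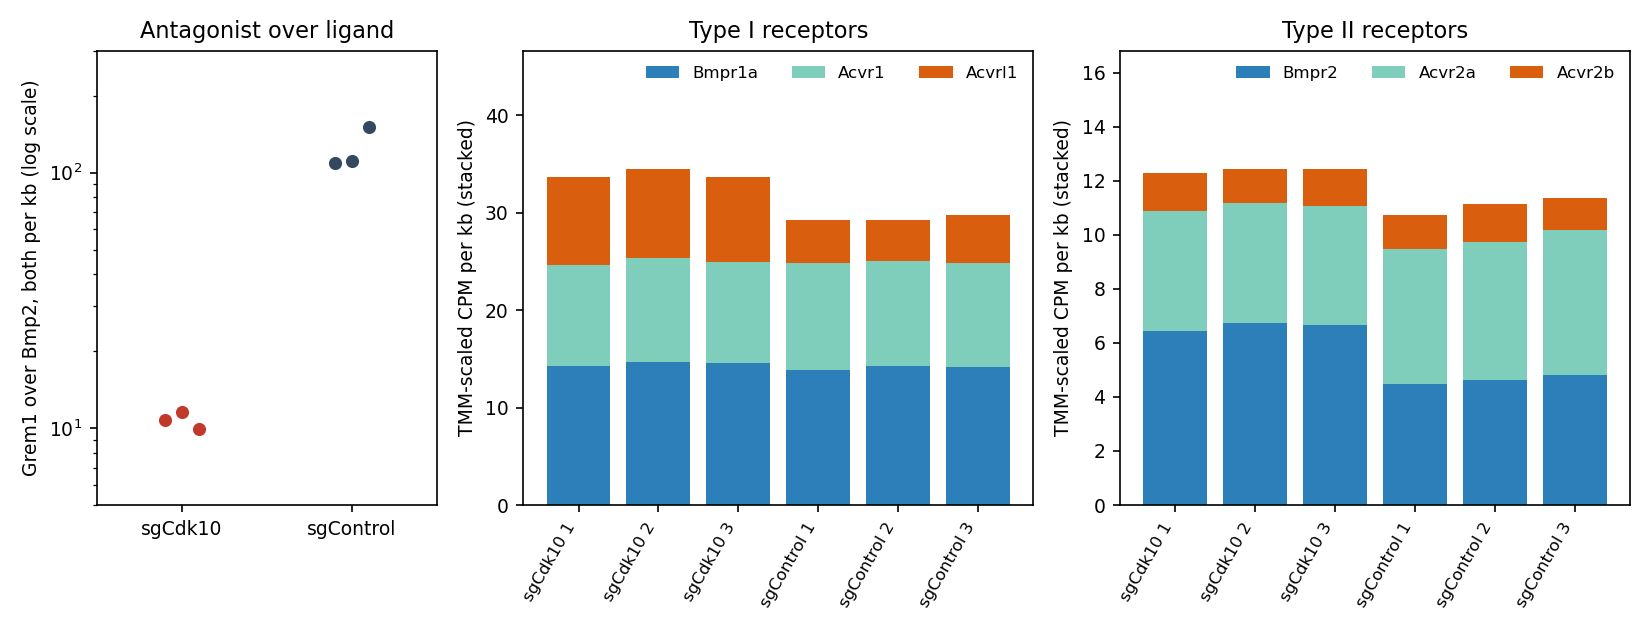
Left, Grem1 over Bmp2 mRNA, both per kilobase (y axis, log scale), 1 point a library, near 10.8 in sgCdk10 and from 109 to 151 in sgControl. Middle and right, stacked CPM per kilobase of type I and type II receptor genes in each library; the Acvrl1 and Bmpr2 parts are larger in all sgCdk10 libraries, and the Bmpr1a part is alike.

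In all, 8 of 11 listed receptors and co-receptors were tested, of which 3 rose, 2 fell and 3 were not called (62.5% called, beside 42.5% of all tested genes). Besides Acvrl1 and Acvr2a, Rgmb, a membrane-anchored BMP co-receptor, rose by 0.42 (SE 0.05; adjusted p = 4.1e-07 by edgeR), and Neo1, which binds such co-receptors, fell by 0.13 (SE 0.03; adjusted p = 0.00136 by edgeR). Eng, the co-receptor endoglin, rose by 0.43 (SE 0.16; adjusted p = 0.0357 by edgeR). That call was not made by 8 of 14 alternatives (adjusted p from 0.0194 to 0.177), and the log2 fold change was 0.28 without sgControl replicate 3.

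The receptor-activated SMADs moved little. Smad1 had 20.7 ± 1.12 CPM in sgCdk10 and 19.9 ± 0.865 CPM in sgControl (adjusted p = 0.511 by edgeR), Smad5 fell to 100.4 ± 0.789 CPM in sgCdk10, against 111 ± 4.89 CPM in sgControl (adjusted p = 0.00144 by edgeR), and Smad9 had 0 counts (SD, n = 3 each). Of 12 tested SMADs and their regulators 3 rose, 4 fell and 5 were not called (58.3% called, beside 42.5% of all tested genes). Skil, a corepressor of SMADs, rose by 0.59 (SE 0.05; adjusted p = 2.9e-10 by edgeR) and Ctdsp2, a phosphatase of SMADs, by 0.12 (SE 0.03; adjusted p = 0.00209 by edgeR). The paralogous ubiquitin ligases changed in opposite directions: Smurf2 rose by 0.53 (SE 0.04; adjusted p = 6.0e-11 by edgeR) and Smurf1 fell by 0.32 (SE 0.03; adjusted p = 4.4e-09 by edgeR). Smad4, the shared partner, had 91.3 ± 1.33 CPM in sgCdk10 and 91.4 ± 3.11 CPM in sgControl (SD, n = 3 each; adjusted p = 0.984 by edgeR).

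Among other listed targets of BMP signalling 3 of 5 tested genes rose and 0 fell, beside 22.1% of all tested genes called higher and 20.4% lower. With 5 genes nothing is read from this count, and no difference from the ID genes was tested. Gata2, a transcription factor, had 15.6, 13.99 and 13.8 CPM in sgCdk10, against 8.91, 9.43 and 9.75 CPM in sgControl (log2 fold change 0.62, SE 0.08; adjusted p = 1.8e-06 by edgeR). Msx1, a homeobox gene, had 10.98, 10.1 and 11.4 CPM in sgCdk10, against 8.57, 7.12 and 5.79 CPM in sgControl (log2 fold change 0.60, SE 0.11, adjusted p = 1.7e-04 by edgeR). Without sgControl replicate 3 its log2 fold change was 0.46. Runx2, a bone transcription factor, rose by 0.12 (SE 0.04; adjusted p = 0.0099 by edgeR), a call that 2 of 14 alternatives did not make (adjusted p from 0.00977 to 0.0658). The exons of Runx2 share 519 bases with the antisense gene Runx2os1. Id4, the remaining ID gene, had 0 counts in every library.

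The E proteins that ID proteins bind were expressed throughout. Tcf3 had 97.8 ± 0.341 CPM in sgCdk10 and 95.6 ± 8.46 CPM in sgControl (SD, n = 3 each; adjusted p = 0.639 by edgeR), and Tcf12 had 108 ± 1.01 CPM in sgCdk10 and 109.8 ± 5.67 CPM in sgControl (SD, n = 3 each; adjusted p = 0.661 by edgeR). Tcf4 rose by 0.18 (SE 0.03; adjusted p = 8.7e-05 by edgeR). With a correction for GC content and length its log2 fold change was 0.07 and the call ended (adjusted p = 0.081, within a range of 1.2e-05 to 0.081 over 14 alternatives).

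Bmp2, Grem1 and Id1 lie on chromosome 2, and the nearest tested genes on either side of each of the 10 were read as well. Of these 20 neighbours 10 were called (6 higher, 4 lower), which is 50% against 42.5% of all tested genes, and 3 of the 10 had the direction of a called gene beside them. Fmn1, the gene of formin 1, which lies 29.4 kb from Grem1, rose by 0.49 (SE 0.04; adjusted p = 2.7e-09 by edgeR) where Grem1 was lower, and Scg5 on the other side was not called (log2 fold change -0.18; adjusted p = 0.628 by edgeR). Around Bmp2, Crls1 at 685 kb fell by 0.26 (adjusted p = 8.0e-05 by edgeR) and Hao1 at 934 kb was not called (adjusted p = 0.289 by edgeR). Next to Bmpr2, Fam117b at 34.0 kb rose by 0.66 (SE 0.05; adjusted p = 3.5e-10 by edgeR), and Nop58 was not called (log2 fold change -0.03; adjusted p = 0.492 by edgeR). Gm20544, which starts 0.441 kb from Smad7 on the opposite strand, rose by 0.44 (SE 0.08; adjusted p = 9.9e-05 by edgeR). Beside Id1, Bcl2l1 rose by 0.15 (adjusted p = 9.7e-04 by edgeR), and beside Id3, Rpl11 fell by 0.12 (adjusted p = 0.00255 by edgeR) and E2f2 rose by 0.15 (adjusted p = 0.0385 by edgeR).

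Likeness over the 6 libraries was searched among tested genes with a symbol, leaving out names of predicted genes and clones, such as Gm and Rik names. Nearest to Bmp2 among these were Egr1, Hbegf and Kctd11, with root mean square distances of 0.16, 0.20 and 0.21. The scale was log2(CPM + 0.1), with each gene centred on its sgControl mean. Egr1, an early growth response transcription factor, had 85.9 ± 2.27 CPM in sgCdk10 and 18.5 ± 0.879 CPM in sgControl (SD, n = 3 each). Nearest to Grem1 were Slc6a9, a glycine transporter, Chac1, an enzyme that degrades glutathione, and the zinc finger gene Zfp420, at distances of 0.04, 0.08 and 0.08. Slc6a9 had 36.5 ± 0.696 CPM in sgCdk10 and 80.9 ± 0.877 CPM in sgControl (SD, n = 3 each). With 2 groups of 3 libraries, such likeness is mainly that of the step between the groups.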

How the data were processed

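RNA-seq was measured in 6 CT26 libraries, 3 per group, grouped by their titles. The authors deposited 1 table of raw counts per gene, and the tools listed in the submitters' processing notes are HISAT2 (2.2.1), featureCounts (2.0.3) and DESeq2 (1.40.2), with build mm10. The sources used here give neither annotation release nor strand setting, so reads of overlapping and antisense genes cannot be told apart. Of 57010 identifiers 52081 had a symbol in GENCODE M21 (GRCm38), from which coordinates and merged exon lengths were taken. Promoters came from RefSeq on GRCm38.p6.

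Genes were filtered with edgeR's filterByExpr (minimum count 10, minimum total 15), scaled by TMM and tested in edgeR 4.0.16 (quasi-likelihood F test, robust dispersions, group as the only term). P-values were adjusted over 13442 genes by Benjamini-Hochberg at 0.05. The SE is the absolute log2 fold change over the root of F, and fold changes are sgCdk10 over sgControl. Totals were 17532202 to 19258309 counts. The floor of 3 counts covers counting error only.

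The members and the gene lists were chosen with earlier results of these data known. Named were all 10 members, Cdk10, up to 5 called genes of each list, the 3 genes nearest in pattern to Bmp2 and to Grem1, and flanking tested genes. Those nearest in pattern were taken from genes with a symbol other than that of a predicted gene or clone. Other genes were named to show levels. Alternatives were DESeq2 size factors, DESeq2 1.42.0, limma-voom (limma 3.58.1), no filter, non-robust dispersions, a stricter filter (at least 1 CPM in all libraries of either group), a replicate block, a loess correction (span 0.5) for GC content of the longest transcript and merged exon length, which 98.5% of tested genes had, and leaving out each library. Of the fits, only the main edgeR test was tried on simulated counts with known changes.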

Additional observations from a re-analysis of the deposited data

How the results depend on the processing

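The 6 calls among the 10 genes were made in the same direction, and no others among them, under all 14 alternatives. Over these, log2 fold changes ran from 2.27 to 2.44 for Bmp2, -1.15 to -1.09 for Grem1, 0.42 to 0.53 for Bmpr2, -0.41 to -0.30 for Id1, -0.40 to -0.32 for Id3 and 0.44 to 0.51 for Smad7. The uncalled Smad6 ran from 0.10 to 0.30, and Bmpr1a from -0.00108 to 0.05. With all 6 libraries the count of called genes ran from 4179 (DESeq2) to 5937 (GC and length correction), and that of the 66 further pathway genes from 15 to 19. Leaving out 1 library gave 4791 to 6056 called genes, 6 of the 10 and 16 to 19 of the further genes. The replicate block gave 5481 called genes, 6 of the 10 and 18 of the further genes, ending the call of Dand5 alone (adjusted p = 0.062 by edgeR). Same-numbered libraries deviated from their group means with correlations of 0.03, -0.06 and -0.10, so the numbers were not taken as pairs. Depth limits Bmp4 and most other ligands, at or near 0 counts, and Smad6.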
